A study of Limodorum abortivum with 6 samples.

Results

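Photosystem, cytochrome b6-f and antenna genes were examined in the roots of *Limodorum abortivum*, a Mediterranean terrestrial orchid with much reduced leaves, comparing mycorrhizal (LM) and non-mycorrhizal (LS) roots. The set comprised 8 of the 100005 genes of the assembled root transcriptome. Their annotation names a photosystem II protein, an oxygen-evolving enhancer, a chlorophyll a-b binding protein or a cytochrome b6-f subunit, or places them in the KEGG pathway Photosynthesis. The set is not complete, since further genes of the PsbO and Psb27 loci, given below, carry such annotation too. The genes were chosen by their annotation but proposed with LM and LS counts of these same libraries in view. The LM to LS differences of the 8 genes are therefore descriptions and support nothing by themselves. Of the 8 genes, 3 are plastid-encoded small subunits of photosystem II (psbK, psbM and psbH) and 5 are nuclear-encoded (petC, PsbO, Lhca1, PnsL3 and Psb27).

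Each group had 3 libraries, named LM3, LM4 and LM6 and LS2, LS3 and LS6, made from polyA-enriched RNA of field-collected root segments. All roots came from adult wild plants of a single Italian site, with genotype and age in years not stated, and no treatment was applied. LM roots were thicker and darker than LS roots and their fungal status was read from hand-cut sections, the dominant symbiont at the site being a *Russula* close to *Russula delica*. LS roots lacked the mycorrhiza but had also been exposed to soil fungi and bacteria.

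Photosystem II is the thylakoid complex that splits water and passes electrons to plastoquinone. The cytochrome b6-f complex carries these electrons onward to photosystem I, and antenna proteins bind chlorophyll and feed light energy to the photosystems. In land plants the core subunits of these complexes are mostly encoded in the plastid genome, while antenna proteins, the Rieske subunit and the lumenal proteins are encoded in the nucleus. Roots usually hold non-green plastids, in which the photosynthetic apparatus is little developed.

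Between 4748078 and 6019195 counts per library fell on genes. LS2 differed more from LS3 and LS6 (chi-square per degree of freedom of 116 and 120 over genes) than LS3 and LS6 differed from each other (49.9). In LM, likewise, LM6 differed more from LM3 and LM4 (81.1 and 85.7) than LM3 and LM4 did from each other (52.6). Members whose counts lay mostly in LS2 are given with and without it. Reads that overlapped more than 1 gene, and were therefore not counted, were 10.8% to 11.7% of the gene and ambiguous reads in LM and 19.5% to 29.3% in LS, so that this share moved with the groups. Its part in the results below was not tested. No gene specific to root cell types was found among the annotated rows, so the tissue label could not be checked against markers. In bulk libraries such as these, fewer cells of a type and less RNA per cell cannot be told apart.

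All LM to LS differences below are given after scaling each library over all its genes (TMM, trimmed mean of M values), in CPM (counts relative to a common library total). These genes include fungal transcripts and others not assigned to plants, and the paper reported more fungal reads on average in LM than in LS. Under that scaling the median log2 fold change (log2 FC, LM minus LS) was −0.26 among the 722 tested genes of the 1159 plant genes with annotation used here, and −0.07 among all 22268 genes tested. With the plant genes scaled alone it was −0.02. A member with a log2 FC near −0.26 was thus no lower than the middle of these plant genes. The 1159 were only part of the plant transcripts that the paper tested, so they need not stand for all of them.

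The 3 plastid-encoded subunits were sparse in every library and were lower in LM. psbK (MSTRG.445) encodes a small membrane-spanning subunit of the photosystem II core. It had 1, 2 and 2 counts in LM3, LM4 and LM6 and 13, 18 and 14 in LS2, LS3 and LS6. Every LM library lay below every LS library, and the LS libraries were close to each other. Scaled levels were 0.282 ± 0.105 CPM in LM and 2.96 ± 0.396 CPM in LS (SD, n = 3 each). The pooled scaled LS counts were 10.6 times the LM counts, with an exact 95% interval of 4.21 to 34.1 that covers counting error only.

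psbM (MSTRG.303) encodes another small subunit, which lies where the monomers of the photosystem II dimer meet. It had 1, 0 and 0 counts in LM3, LM4 and LM6 and 7, 5 and 6 counts in LS2, LS3 and LS6. The groups did not overlap, but the single LM count left the pooled LS to LM ratio of 21.1 with a wide interval, 3.34 to 881. A count of 0 in a library allows up to 3 counts.

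psbH (MSTRG.2502) encodes a small subunit that is phosphorylated in plants. It had 2, 2 and 0 counts in LM3, LM4 and LM6 and 10, 15 and 8 in LS2, LS3 and LS6. All LS libraries again exceeded all LM libraries, and the pooled LS to LM ratio was 9.70 (3.45 to 37.7).

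Summed, the 3 plastid-encoded subunits had 4, 4 and 2 counts in LM3, LM4 and LM6 and 30, 38 and 28 in LS2, LS3 and LS6. LS was thus high in all 3 libraries, with no single library carrying the difference. The summed level was 0.569 ± 0.223 CPM in LM and 6.30 ± 0.467 CPM in LS (SD, n = 3 each). The LS to LM ratio of 11.3 (5.88 to 24.3) became 11.8 (6.01 to 25.7) without LS2 and 9.56 with the libraries scaled on plant genes alone.

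One further plastid-encoded gene stood among the annotated plant genes used here, ycf15 (MSTRG.2053), a reading frame of unsettled function that belongs to no photosynthetic complex. It had 0, 0 and 2 counts in LM3, LM4 and LM6 and 4, 5 and 3 in LS2, LS3 and LS6. Its LM libraries also lay below its LS libraries (LS to LM ratio 7.05, interval 1.57 to 64.9). The 2-sided exact permutation p was 0.1, the smallest that 3 against 3 libraries can give, and 0.25 after adjustment over the 5 genes outside the set tested in this way. Plastid transcripts are mostly not polyadenylated as nuclear ones are, so polyA-enriched libraries hold few of them, and these counts are a small and possibly uneven sample of the plastid RNA.

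**Figure D1:**
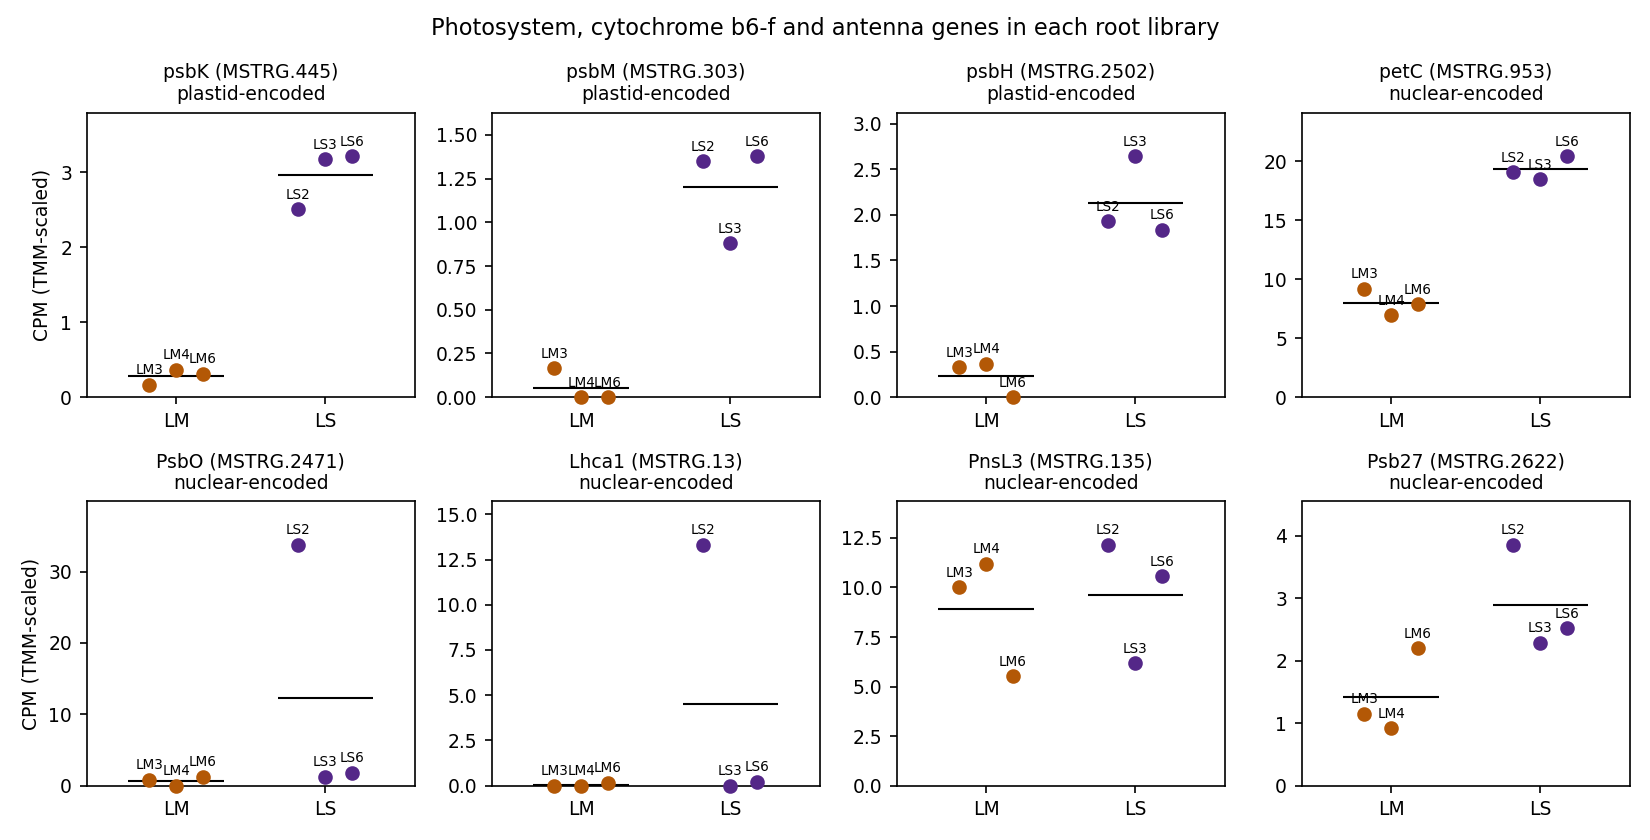
Scaled level (CPM) of each of the 8 genes in each of the 6 libraries, with LM in orange, LS in purple, and the group mean as a line; each panel has its own axis starting at 0. The plastid-encoded psbK, psbM and psbH and the nuclear petC are higher in all 3 LS libraries, whereas PsbO and Lhca1 reach 33.8 and 13.3 CPM in LS2 alone.

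petC (MSTRG.953), the nuclear gene for the Rieske protein, the iron-sulfur part of cytochrome b6-f, was the best counted of the members that differed. It had 56, 38 and 50 counts in LM3, LM4 and LM6 and 99, 105 and 89 in LS2, LS3 and LS6. The groups did not overlap. Scaled levels were 8.02 ± 1.12 CPM in LM and 19.3 ± 0.984 CPM in LS (SD, n = 3 each), with an LS coefficient of variation of 5.09%. The LS to LM ratio was 2.39 (1.95 to 2.94), and the log2 FC of −1.27 ± 0.38 (SE) became −1.03 ± 0.24 with the plant genes fitted alone. Without LS2 the LM to LS ratio was 0.417 (0.333 to 0.519), so LS2 did not carry the difference.

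Psb27 (MSTRG.2622) encodes a lumenal protein known to take part in photosystem II assembly and repair. It had 7, 5 and 14 counts in LM3, LM4 and LM6 and 20, 13 and 11 in LS2, LS3 and LS6. Scaled levels were 1.43 ± 0.687 CPM in LM and 2.89 ± 0.845 CPM in LS (SD, n = 3 each), and LM6, the highest LM library at 2.21 CPM, stood just below LS3 at 2.29 CPM. The groups overlapped once the libraries were scaled on plant genes. The LS to LM ratio was 1.99 (1.20 to 3.36), and the log2 FC was −0.76 with the plant genes fitted alone and −1.59 without LM6 in the fit of all genes. A second gene of the same assembled locus, MSTRG.2621, had 1, 0 and 3 counts in LM against 2, 7 and 2 in LS, and overlapped between groups.

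PnsL3 (MSTRG.135) is described as a lumenal subunit of the photosynthetic NDH complex, which feeds electrons back into the plastoquinone pool, although its KEGG entry names the related oxygen-evolving enhancer protein 3. It had 61, 61 and 35 counts in LM3, LM4 and LM6 and 63, 35 and 46 in LS2, LS3 and LS6. The groups overlapped almost completely, at 8.91 ± 3.00 CPM in LM and 9.62 ± 3.10 CPM in LS (SD, n = 3 each). The log2 FC of −0.11 ± 0.51 (SE) turned to 0.13 with the plant genes fitted alone, and the ratio of pooled LS to LM counts was 1.08 (0.854 to 1.36).

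Lhca1 and PsbO were high in LS2 and near 0 in the other 5 libraries. Lhca1 (MSTRG.13), a chlorophyll a-b binding protein of the photosystem I antenna, had 0, 0 and 1 counts in LM3, LM4 and LM6 and 69, 0 and 1 in LS2, LS3 and LS6. LS2 held 97.2% of its counts. Without LS2, each group had a single count and no difference was detectable at this depth.

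PsbO (MSTRG.2471), the extrinsic protein that stabilises the manganese cluster of the oxygen-evolving complex, had 5, 0 and 8 counts in LM3, LM4 and LM6 and 175, 7 and 8 in LS2, LS3 and LS6. LS2 held 86.2% of the counts, and its scaled level was 32.8 times the mean of the other 5 libraries. The LS to LM ratio of 17.2 (9.81 to 32.9) thus describes LS2 rather than LS. Without that library the LM to LS ratio was 0.486, with an interval of 0.213 to 1.10 that includes equal levels.

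The assembly split the PsbO locus into 3 genes, whose reads the counting could divide. MSTRG.2470 followed the LS2 pattern with 2, 1 and 0 counts in LM against 21, 1 and 0 in LS2, LS3 and LS6, and its LM to LS ratio went from 0.116 to 1.68 (0.135 to 88.4) without LS2. MSTRG.2469 did not, with 0, 1 and 3 counts in LM against 6, 5 and 3 in LS. Summed over the locus, PsbO had 7, 2 and 11 counts in LM3, LM4 and LM6 and 202, 13 and 11 in LS2, LS3 and LS6, and the LS to LM ratio fell from 13.3 (8.40 to 22.2) to 2.14 (1.13 to 4.08) when LS2 was left out.

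Chloroplastic carbonic anhydrase (MSTRG.713), an enzyme abundant in leaves that interconverts carbon dioxide and bicarbonate, had 0, 0 and 2 counts in LM3, LM4 and LM6 and 36, 1 and 2 in LS2, LS3 and LS6. LS2 held 87.8% of them, and the LM to LS ratio of 0.0436 became 0.374 (0.0312 to 3.27) without it, an interval that includes equal levels. Together with the other photosynthesis-annotated genes described below, 45 genes had at least 20 counts, and 4 of these had 80% or more of their scaled counts in 1 library. The 4 were Lhca1, the 2 PsbO genes and carbonic anhydrase, and the library was LS2 each time (8.89% of the 45). Among all annotated plant genes with as many counts, 14 of 989 (1.42%) were held by LS2 in this way, and between 2 and 6 by each other library. The 4 genes are themselves among these 14. Lhca1 and a PsbO gene are members, the 2 PsbO genes share 1 locus, and carbonic anhydrase was put on the list by name. The shares are therefore a description and not a test. The plastid-encoded subunits, by contrast, had only 26.0% to 36.8% of their counts in LS2. Whether LS2 held tissue of another kind was not tested.

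**Figure D2:**
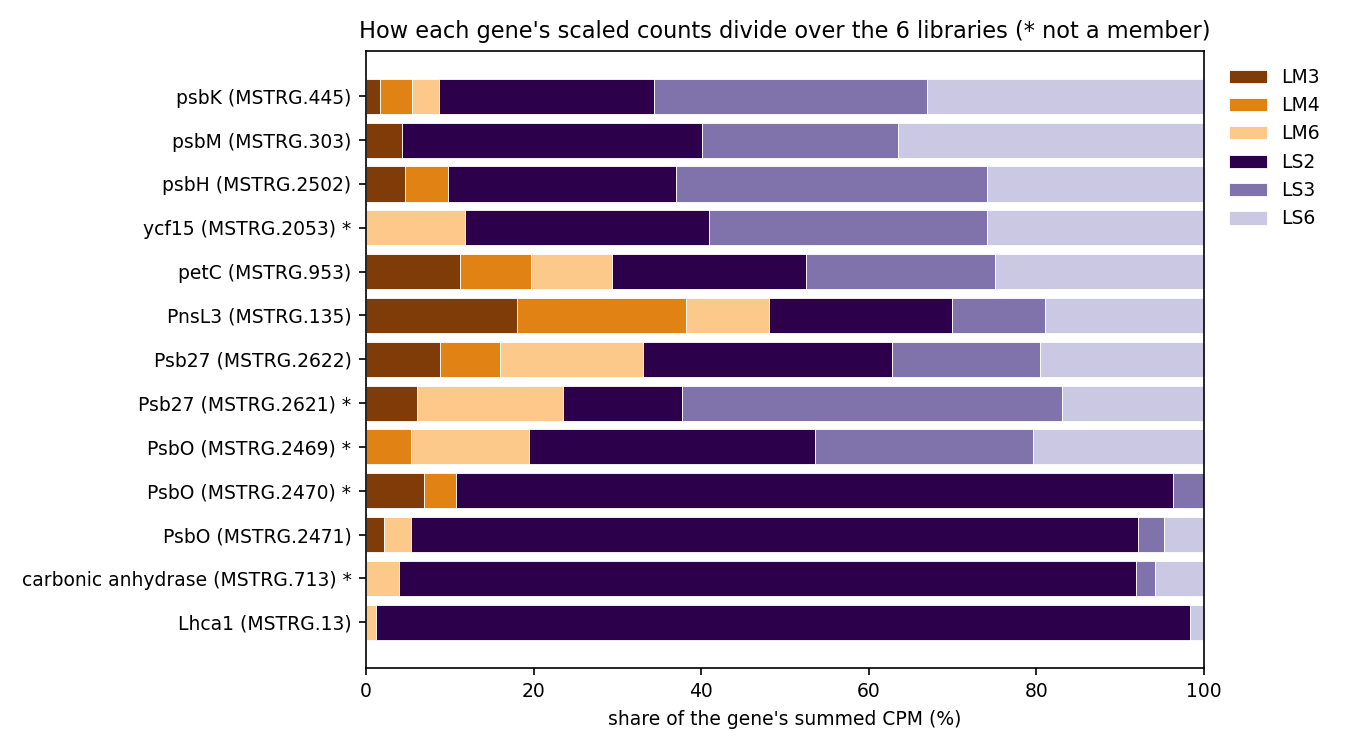
Share of each gene's summed CPM (%) that falls in each of the 6 libraries, for the 8 members and 5 related genes marked with an asterisk. psbK, psbM and psbH divide over all 3 LS libraries, while Lhca1, 2 of the PsbO genes and carbonic anhydrase lie almost wholly in LS2.

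The assembled sequences carried varied taxon labels. Only 2 of the 8 members were assigned within orchids, psbH to *Cypripedium formosanum* and PsbO to Epidendroideae. The others were assigned to *Nicotiana* (psbK), *Phoenix dactylifera* (psbM), rosids (petC), Phaseoleae (Lhca1), Arecaceae (PnsL3) and *Aquilegia coerulea* (Psb27). Such labels depend on which relatives are in the sequence collection searched, and whether any of these reads came from a plant other than *L. abortivum* was not tested.

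Across all genes, edgeR's quasi-likelihood test with Benjamini-Hochberg adjustment called 688 of 22268 genes (3.09%) at an adjusted p under 0.05. Of these, 102 were lower in LM (0.458% of the genes tested). The smallest edgeR adjusted p of any gene was 0.0498, so all 688 calls lay just under the threshold. Of the 8 members, 4 passed the filter on low counts (psbK, petC, PnsL3 and Psb27) and 4 did not. psbK passed through its LS counts. It was the 1 member called, lower in LM with a log2 FC of −3.30 ± 0.45 (SE) and an edgeR adjusted p of 0.0498, and since the members were selected on this contrast nothing is read from the call. The call was lost when any of 5 of the 6 libraries (all but LM6) was left out and with the plant genes fitted alone (edgeR adjusted p = 0.0917), and over all alternatives run its adjusted p lay between 0.0132 and 0.170. The adjusted p values of petC, Psb27 and PnsL3 in the same edgeR fit were 0.0998, 0.264 and 0.920.

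In 5 of the 8 members every LM library lay below every LS library (psbK, psbM, psbH, petC and Psb27), and in none did every LM library lie above. The former occurred in 13.9% of all genes tested, and in 17.0% of the 1159 annotated plant genes whatever their counts. With the libraries scaled on plant genes 4 members were apart in this way, Psb27 being the one lost. Among the 722 annotated plant genes tested, ranked from the lowest log2 FC, psbK was number 12, petC 91, Psb27 122 and PnsL3 423.

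**Figure D3:**
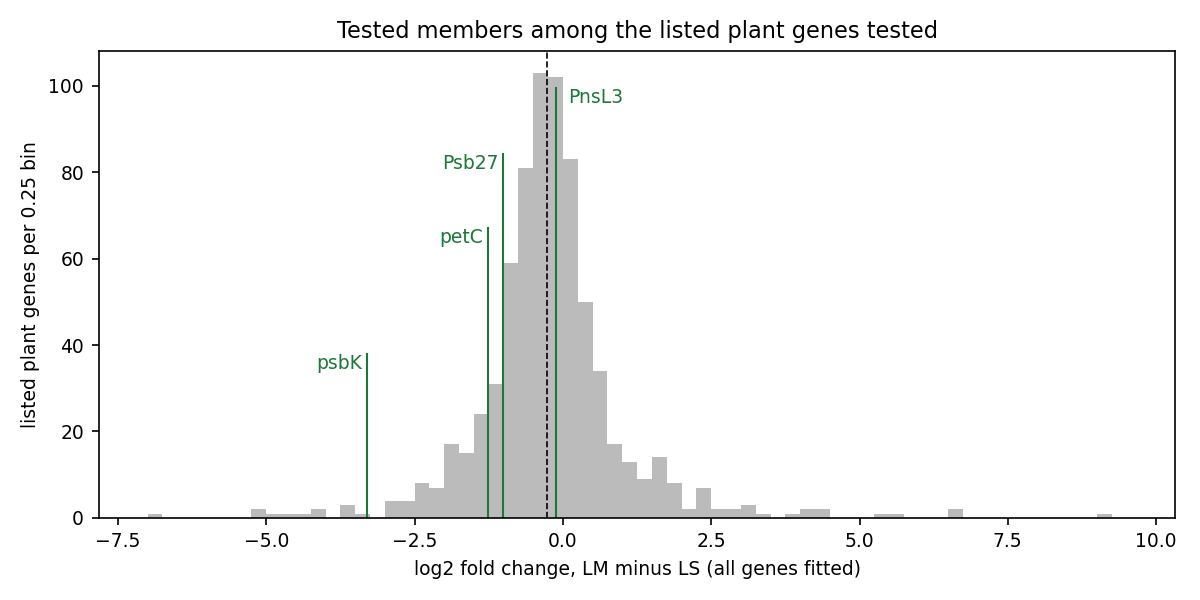
Distribution of log2 FC (LM minus LS) over the 722 annotated plant genes tested, in bins of 0.25, with the 4 tested members as green lines of arbitrary height and the median of −0.26 dashed. psbK lies in the lower tail at −3.30, petC and Psb27 on the lower flank, and PnsL3 at −0.11 near the middle.

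The members were set beside 46 other plant genes with photosynthesis, thylakoid, photosystem or chlorophyll annotation, or with a role in pigment synthesis, carbonic anhydrase activity or glycolate transport. This list was broad and also held genes such as chloroplast ribosomal proteins and a cytochrome c oxidase subunit. Its only genes for photosystem proteins like the members were the further PsbO and Psb27 genes above, which did not pass the filter on low counts. Of these, 27 passed the filter, and edgeR called none of them in either direction, while 4 had an unadjusted p under 0.05 (3 lower and 1 higher in LM) and DESeq2 called 2, both higher in LM. Their median log2 FC was −0.27, against −0.26 for all annotated plant genes tested, and −0.03 with the plant genes fitted alone. In 6 of the 27 (22.2%) every LM library was below every LS library, against 20.8% of the annotated plant genes tested. As a group, the tested genes of this broad list thus lay where the annotated plant genes tested here lay. No photosystem subunit was among them. The paper reported photosynthesis among the few KEGG pathways enriched in genes lower in LM, from DESeq2 on all its plant transcripts. The list here used other annotation terms, another main test and only part of those transcripts, so the results are not directly comparable.

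None of the genes named for factors that assist the assembly of thylakoid complexes passed the test. LPA2 (MSTRG.1131), which in *Arabidopsis* is needed for efficient photosystem II assembly, had 219, 281 and 224 counts in LM3, LM4 and LM6 and 517, 448 and 417 in LS2, LS3 and LS6. The groups did not overlap, and the log2 FC was −1.16 ± 0.31 (SE) with an edgeR adjusted p of 0.0809. HCF164 (MSTRG.1334), a thioredoxin-like protein required in *Arabidopsis* for cytochrome b6-f assembly, had a log2 FC of −0.55, and a gene similar to THYLAKOID ASSEMBLY 8 (MSTRG.2146) one of −1.04, with edgeR adjusted p values of 0.399 and 0.194. Second genes of LPA2, HCF164 and THYLAKOID ASSEMBLY 8, named here after their values were seen, did not pass the filter on low counts. The second HCF164 gene (MSTRG.1333) had 12, 8 and 6 counts in LM against 5, 4 and 6 in LS. The second LPA2 gene (MSTRG.1132) had 1, 0 and 1 against 4, 5 and 2. For THYLAKOID ASSEMBLY 8 (MSTRG.2147) the counts were 5, 2 and 2 against 7, 7 and 5. In the LPA2 and THYLAKOID ASSEMBLY 8 genes every LM library lay below every LS library. PAM68 (MSTRG.1249), another photosystem II assembly factor in *Arabidopsis*, was not tested. It had 0, 3 and 1 counts in LM against 7, 0 and 1 in LS2, LS3 and LS6. Its LM to LS ratio went from 0.426 to 2.24 (0.222 to 110.5) without LS2, so the direction depended on that library.

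Thylakoid kinase and stress-protein genes did not pass the test. A gene similar to the kinases STN7 and STN8 (MSTRG.2176), which phosphorylate antenna and photosystem II proteins, had a log2 FC of −0.61. Stress enhanced protein 1 (MSTRG.2345), a relative of the antenna proteins, was even between groups (0.12), and stress enhanced protein 2 (MSTRG.2343) varied so widely within groups, with 0, 15 and 66 counts in LM against 17, 10 and 0 in LS, that its value of 1.36 had an SE of 1.61. A thylakoid lumenal protein (MSTRG.1507) had a log2 FC of −0.47. The edgeR adjusted p values of these 4 genes were between 0.539 and 0.871.

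The genes named for pigment synthesis did not pass the test. GUN4 (MSTRG.96), which binds porphyrin and stimulates the chlorophyll branch of tetrapyrrole synthesis, had 27, 112 and 55 counts in LM3, LM4 and LM6 and 74, 32 and 18 in LS2, LS3 and LS6, which overlap (log2 FC 0.48, edgeR adjusted p = 0.752). CPP1 (MSTRG.1643), a chaperone of the protochlorophyllide oxidoreductase, was counted well and was level between groups, with 765, 895 and 1104 counts in LM against 844, 847 and 826 in LS (log2 FC −0.11). A carotenoid hydroxylase gene (MSTRG.866) had 17, 8 and 64 counts in LM against 146, 1 and 0 in LS2, LS3 and LS6. Its LM to LS ratio was 0.515 with LS2 and turned to 49.9 (8.73 to 1994) without it, where LS3 and LS6 held a single count between them, so that the direction of the difference depended on LS2.

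In carbon metabolism, chloroplastic fructose-1,6-bisphosphatase (MSTRG.2035), an enzyme of the Calvin cycle, had 48, 25 and 39 counts in LM3, LM4 and LM6 and 83, 99 and 62 in LS2, LS3 and LS6. Its groups did not overlap, and its log2 FC of −1.35 ± 0.43 (SE) was close in size to that of petC (edgeR adjusted p = 0.109). The plastid glycolate and glycerate translocator PLGG1 (MSTRG.910), part of photorespiration, had a log2 FC of −0.85 (edgeR adjusted p = 0.319). The 2 genes called by DESeq2 were a nucleoside diphosphate kinase (MSTRG.115) with 105, 180 and 83 counts in LM against 25, 46 and 29 in LS (DESeq2 adjusted p = 0.0346), and a polyphenol oxidase (MSTRG.1195) with 15, 4 and 4 counts in LM against 0 in each LS library (DESeq2 adjusted p = 0.0335). Neither encodes a subunit of a photosynthetic complex.

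**Figure D4:**
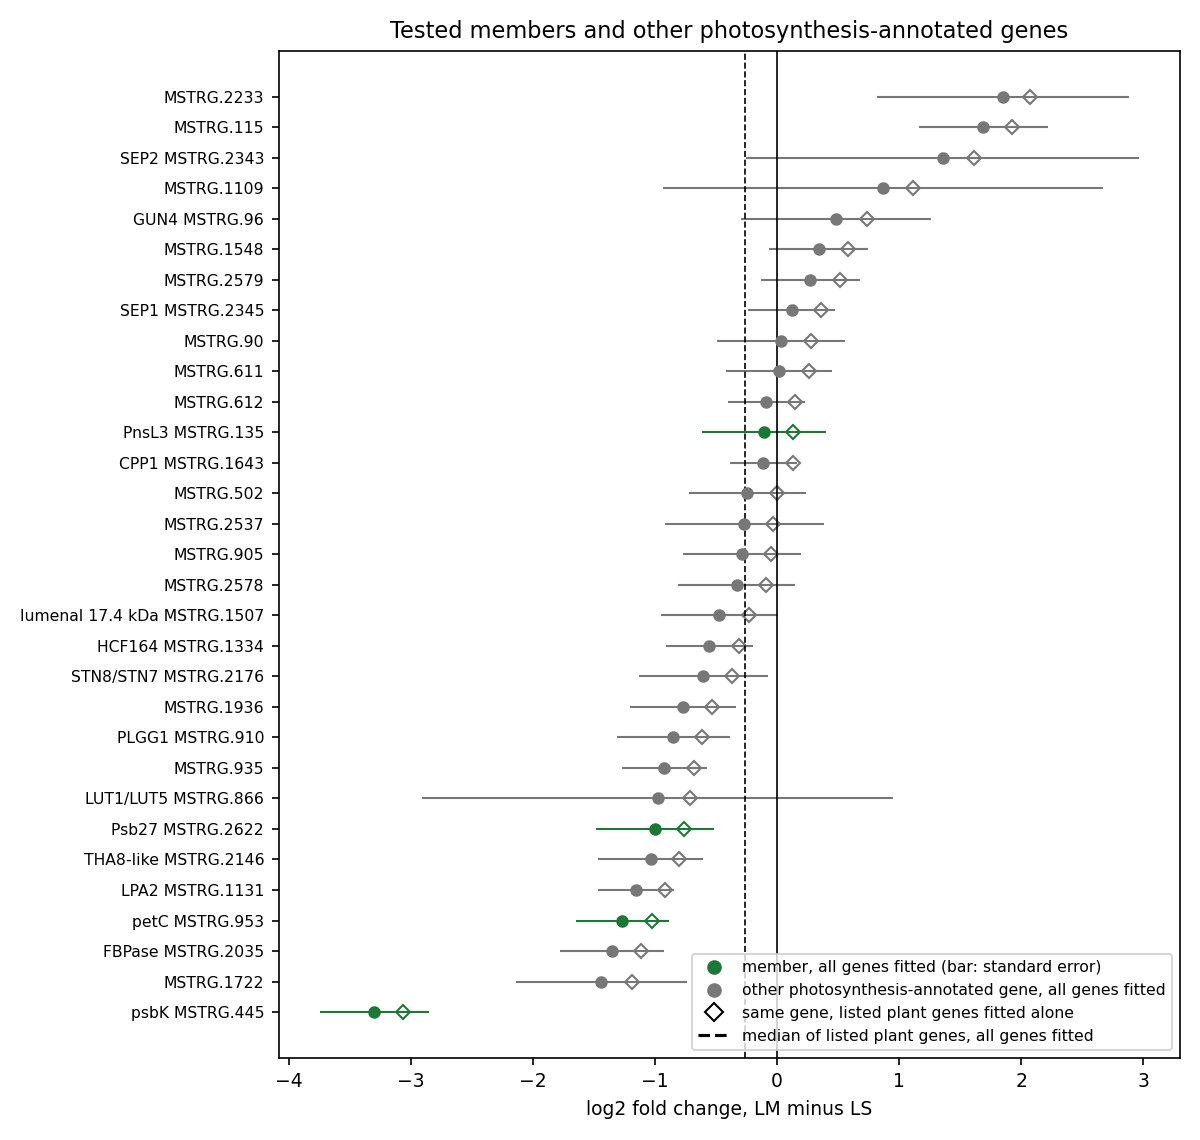
Log2 FC (LM minus LS) of the 4 tested members (green) and the 27 tested photosynthesis-annotated genes (grey); filled points and SE bars are from the fit of all genes, open diamonds from the plant genes fitted alone, and the dashed line is the median of −0.26. The other genes spread from −1.44 to 1.85 on both sides of the median, and psbK lies apart at −3.30.

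The annotated plant genes whose profile over the 6 libraries was most like that of each of 3 members were found by Pearson correlation of log2(CPM + 1) among 988 other genes with at least 20 counts. Such a correlation ignores the size of a difference. For petC they were heme-binding protein 2 (MSTRG.921, r = 0.986), a glutathione peroxidase (MSTRG.236, r = 0.984) and the fructose-1,6-bisphosphatase above (r = 0.974). Their log2 FC values were −1.78, −0.52 and −1.35, against −1.27 for petC. For psbK they were an AP-4 complex subunit (MSTRG.1181, r = 0.996), an F-box protein (MSTRG.524, r = 0.994) and MSTRG.316, a gene with no description (r = 0.992). MSTRG.316 had 0, 2 and 0 counts in LM against 12, 18 and 14 in LS. MSTRG.1181 and MSTRG.524 differed far less between groups than psbK, with log2 FC values of −0.40 and −0.62 against −3.30. For PsbO they were MSTRG.1445, with no description (r = 0.994), an F-box and kelch-repeat gene (MSTRG.1554, r = 0.994) and carbonic anhydrase (r = 0.985). These correlations rest on 6 libraries, share their scaling, and for PsbO are set by LS2.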

How the data were processed

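The 6 deposited files held read counts per gene. The authors trimmed reads with bbduk, assembled all libraries with Trinity, aligned with HISAT2 2.0.4, merged with StringTie 1.3.5 and counted with HTSeq (versions per the submitters' processing notes); whether counting used strand is not given in the sources used here. The 5 rows that name no gene (68.3% to 72.8% of each file's total) were left out. Counts were fitted in R 4.3.3 with edgeR 4.0.16 (TMM factors, filterByExpr with a minimum count of 10 and a minimum total of 15, quasi-likelihood F test, LM against LS, Benjamini-Hochberg over all genes tested). CPM used TMM factors, and ratios of pooled counts carry exact conditional 95% intervals. SE is the log2 FC over the square root of F. DESeq2 1.42.0, other scalings and left-out libraries were alternatives. Descriptions, taxa and loci came from the study's plant annotation, of which 1159 rows were used.

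The members, gene lists and named genes (all members, genes of their loci, pathway genes by role, called list genes and the 3 most alike) were chosen with earlier results of these data known. On simulated counts with 200 changed genes among 22268, edgeR recovered none at log2 changes of 2 to 4 and 161 at 5 to 8. The changed genes all had higher counts than the plastid-encoded members. Replicates were root segments from different individuals, and no library pair was a duplicate (chi-square per degree of freedom 49.9 to 159). Sequences of the members and their lengths were not used here, so levels were not compared between genes.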

Additional observations from a re-analysis of the deposited data

How the results depend on the processing

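The number of genes called over the whole table depended strongly on the processing. Against 688 of 22268, edgeR called 1202 with library sizes alone, 308 with no filter, 0 of the 722 annotated plant genes fitted alone (110 with an unadjusted p under 0.05), and DESeq2 called 8675 of the 45958 genes to which it gave an adjusted p. Leaving out 1 library gave 0 to 5101 calls, the highest without LM6. The members called were 1 in the fit of all genes, 0 with no filter, 0 with the plant genes alone and 0 to 2 with 1 library left out (2, psbK and psbH, without LM6, and 0 without any other). Of the 46 photosynthesis-annotated genes, DESeq2 called 2 and each other alternative run 0. No member reversed a call. The PnsL3 log2 FC changed sign in 4 of 13 alternatives, and the values of the other members in none. For the 4 members that did not pass the filter, these values are log2 ratios of pooled counts, which the replicate block could not alter. Among them, Lhca1 and PsbO moved from −6.36 and −4.10 to −1.01 and −1.22 without LS2. With the replicate number as a replicate block, edgeR called 2319 genes and psbK alone of the members (adjusted p = 0.0459). For pairing, each gene's mean within its own group was subtracted from log2(CPM + 1), and these deviations were correlated between libraries. Same-numbered libraries gave −0.052, 0.241 and 0.212. In these deviations LM4 and LM6 were each most like their same-numbered LS library, whereas LM3 was most like LS3 (0.135) rather than LS2. Deviations within a group cancel each other, so the correlations are not independent and do not measure how alike whole libraries are. Whether the numbers pair the samples cannot be told from these values. Depth limited the plastid-encoded genes, with 10 LM counts in all. The simulation, with 200 genes changed, recovered no log2 change of 2 to 4, whereas psbK was called at −3.30 in the real fit. In that real fit 5782 of 22268 genes had an unadjusted edgeR p under 0.05. Adjusted p values depend on how many genes change, so the simulated recovery does not carry over to the data. The simulation also changed only genes with higher counts than the plastid-encoded members, so it does not say what could be detected for those.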

Other observations

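Outside photosynthesis, other annotated plant genes, named after their values were seen, were also held by LS2. Isocitrate lyase (MSTRG.1930), the glyoxylate cycle enzyme that plants use when they turn fatty acids into sugar, had 221, 79 and 769 counts in LM3, LM4 and LM6 and 24383, 419 and 1431 in LS2, LS3 and LS6, and a second isocitrate lyase gene (MSTRG.1931) had 6, 4 and 16 against 544, 13 and 28. A calcium-binding CML gene (MSTRG.1229) had 173, 136 and 137 counts in LM against 2138, 29 and 77 in LS2, LS3 and LS6. A gene similar to Adagio protein 2 (MSTRG.1554), which in *Arabidopsis* belongs to a family of blue-light receptors, had 2, 0 and 2 counts in LM against 40, 2 and 3 in LS2, LS3 and LS6. Over all genes with at least 20 counts, 510 of 44865 (1.14%) had 80% or more of their scaled counts in LS2, against 269 to 828 for the other libraries.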
